A study of Mus musculus with 2 samples.

Results

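The 7 mouse genes described here encode the MHC class II antigen presentation system: the chains H2-Aa, H2-Ab1 and H2-Eb1, the invariant chain Cd74, the peptide editor subunits H2-DMa and H2-DMb1, and the coactivator Ciita. They were found by symbol among the 41605 genes of 2 single-cell RNA-seq tables of mouse hippocampus, and all 7 were present in both. Every library came from male wild-type C57BL/6 mice aged 10 weeks, with the hippocampal cells of 3 mice pooled, cleaned of debris and myelin on a Percoll gradient and processed with the 10x Chromium 3' v3 kit. The study compared enzymatic dissociation, for 30 min at 37 °C, with mechanical dissociation at 4 °C. No label says which library had which treatment, so the libraries are called library 1 and library 2, are treated as unassigned, and are given side by side with no comparison between them. Each library is 1 pool without a replicate, so no test was made: intervals are exact 95% intervals (Poisson for a summed level, Clopper-Pearson for a share) and cover counting error only. Where a count is 0, the limit given in their place is the share or level that 3 counts would make.

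Class II molecules present peptides from the endosome to CD4 T cells. An α chain (H2-Aa) pairs with a β chain (H2-Ab1), Cd74 fills the groove until endosomal proteases cut it away, and the H2-DM dimer then exchanges its last fragment for a peptide. Ciita binds no DNA itself: it is recruited by RFX, CREB and NF-Y proteins that sit on the X and Y boxes of the class II, Cd74 and H2-DM promoters. The C57BL/6 haplotype makes no H2-Ea chain, so H2-Eb1 has no partner there, although it is transcribed. In healthy brain, class II is known from dendritic cells and from part of the macrophages at its borders, and is low in resting microglia.

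The members lie in 3 places of the genome (build GRCm38, GENCODE M21, all protein-coding). H2-DMa occupies chromosome 17 from 34119541 to 34139101 on the plus strand, and H2-DMb1 follows at 34153072 to 34160230, also on the plus strand. H2-Ab1 lies at 34257689 to 34269419 on the plus strand, H2-Aa at 34282744 to 34287823 on the minus strand, and H2-Eb1 at 34305867 to 34316674 on the plus strand. Ciita is on chromosome 16 from 10480059 to 10528418, plus strand. Cd74 lies apart from both groups. The 3' kit counts transcript ends, so levels were not divided by length.

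The promoters of one α and one β chain are shown because they carry the X and Y elements through which Ciita acts, in a similar arrangement on opposite strands. They are the 250 bases before the RefSeq start (GRCm38.p6), for H2-Aa chr17:34287824-34288073 on the minus strand and for H2-Eb1 chr17:34305617-34305866 on the plus strand. Capitals mark matches to a CRE-like motif (TGACGTCA), an X-box-like motif (AACNNATGA) or a Y box (GATTGG), each searched on both strands.
H2-Aa: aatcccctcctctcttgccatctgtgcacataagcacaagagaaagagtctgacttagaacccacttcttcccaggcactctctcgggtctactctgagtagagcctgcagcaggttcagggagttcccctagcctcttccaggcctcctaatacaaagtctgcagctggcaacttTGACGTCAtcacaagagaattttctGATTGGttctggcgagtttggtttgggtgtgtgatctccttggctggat
H2-Eb1: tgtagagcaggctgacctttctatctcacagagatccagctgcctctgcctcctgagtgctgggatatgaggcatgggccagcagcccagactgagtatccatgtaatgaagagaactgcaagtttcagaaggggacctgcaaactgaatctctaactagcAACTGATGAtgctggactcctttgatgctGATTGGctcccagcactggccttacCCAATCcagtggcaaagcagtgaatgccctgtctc
In the H2-Aa promoter the CRE-like match began 74 bases and the Y box 49 bases before the start, with 17 bases between them. In the H2-Eb1 promoter the X-box-like match began 89 bases and the Y box 60 bases before the start, with 20 bases between them. The shares of all genes refer to the longer windows of the table, from 250 bases before to 50 bases after the start. Of 32851 such windows, 2.85% held the X-box-like motif, 1.79% the CRE-like motif and 16.1% the Y box. Only 26 windows, or 0.0791%, held an X-box-like or CRE-like match ending 1 to 40 bases before a Y box on the gene's strand. Beside H2-Aa and H2-Eb1, those 26 included H2-DMb1 (21 bases between the matches), H2-DMb2 (21 bases) and H2-Ob (18 bases), a β chain of the DM inhibitor. The arrangement was not found in the 2 windows of H2-DMa or in those of H2-Oa and H2-Eb2. The letters were chosen after the sequences were seen, and a match is a description of the sequence. Of the members, 4 had a window in the table; H2-Ab1, Cd74 and Ciita had none.

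Library 1 held 12306 cell barcodes with 18783691 UMIs (unique molecules counted) and a median of 1256 UMIs per barcode, and library 2 held 6448 barcodes with 29356086 UMIs and a median of 1600.5. Filters (at least 1000 UMIs and 500 genes, at most 10% mitochondrial UMIs, no doublet call) left 5989 and 2075 cells. Neuron-gated cells made up 75.5% of the cells passing the filters in library 1 and 1.98% in library 2, and microglia-gated cells 11.2% and 71.6%. A gate here is a minimum number of a cell type's marker genes and of their UMIs; none of the markers is a member. Of the markers that set the microglia gate, the microglial receptor P2ry12 was found in 664 of 672 gated cells of library 1 and in 1464 of 1482 such cells of library 2 below the class II threshold used further on. The libraries shared 19 barcode sequences.

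The members fell into a group of 4 found mainly in a few barcodes and a group of 2 spread over many. Cd74, on chromosome 18, had 936 UMIs in library 1 and 12919 in library 2, H2-Aa 328 and 4365, H2-Ab1 262 and 4556, and H2-Eb1 267 and 4915. A UMI of any of these 4 genes was seen in 146 barcodes of library 1 (1.19%) and 544 of library 2 (8.44%). H2-DMa, with only 621 and 2721 UMIs, was seen in 499 barcodes (4.05%) and 1326 barcodes (20.6%), and H2-DMb1, with 370 and 1853 UMIs, in 305 (2.48%) and 1063 (16.5%). Ciita was near the limit of detection, with 14 UMIs in 9 barcodes of library 1 and 34 UMIs in 17 barcodes of library 2.

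Barcodes in which Cd74, H2-Aa, H2-Ab1 and H2-Eb1 together reached 0.5% of UMIs are called class II-high. There were 10 in library 1 (0.0813% of barcodes, interval 0.0390 to 0.149%) and 64 in library 2 (0.993%, 0.765 to 1.27%). The 4 genes chose these barcodes, so their levels there are a description. The 10 barcodes held 88.9% of the 1793 UMIs of the 4 genes in library 1, and the 64 held 97.1% of 26755 in library 2. By contrast they held 4.83% of the H2-DMa and 6.76% of the H2-DMb1 UMIs in library 1, and 15.3% and 19.97% in library 2. Ciita, which the rule did not use, had 8 of its 14 UMIs there in library 1 and 34 of 34 in library 2.

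Barcodes lay close to the threshold on both sides, with no wide gap at it. In library 1 the barcode just inside had 3 UMIs of the 4 genes among 573 (0.524%), and the one just outside, a microglia-gated cell, had 13 of 2940 (0.442%). In library 2 the barcode just inside, also microglia-gated, had 38 of 6862 (0.554%), and the one just outside had 14 of 2980 (0.470%). The highest shares were 12.4% in library 1 and 17.6% in library 2, well above both edges. After the filters 6 class II-high cells remained in library 1 and 37 in library 2. In library 1, 4 barcodes were too shallow; in library 2, 11 were too shallow and 16 had too many mitochondrial UMIs.

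**Figure D1:**
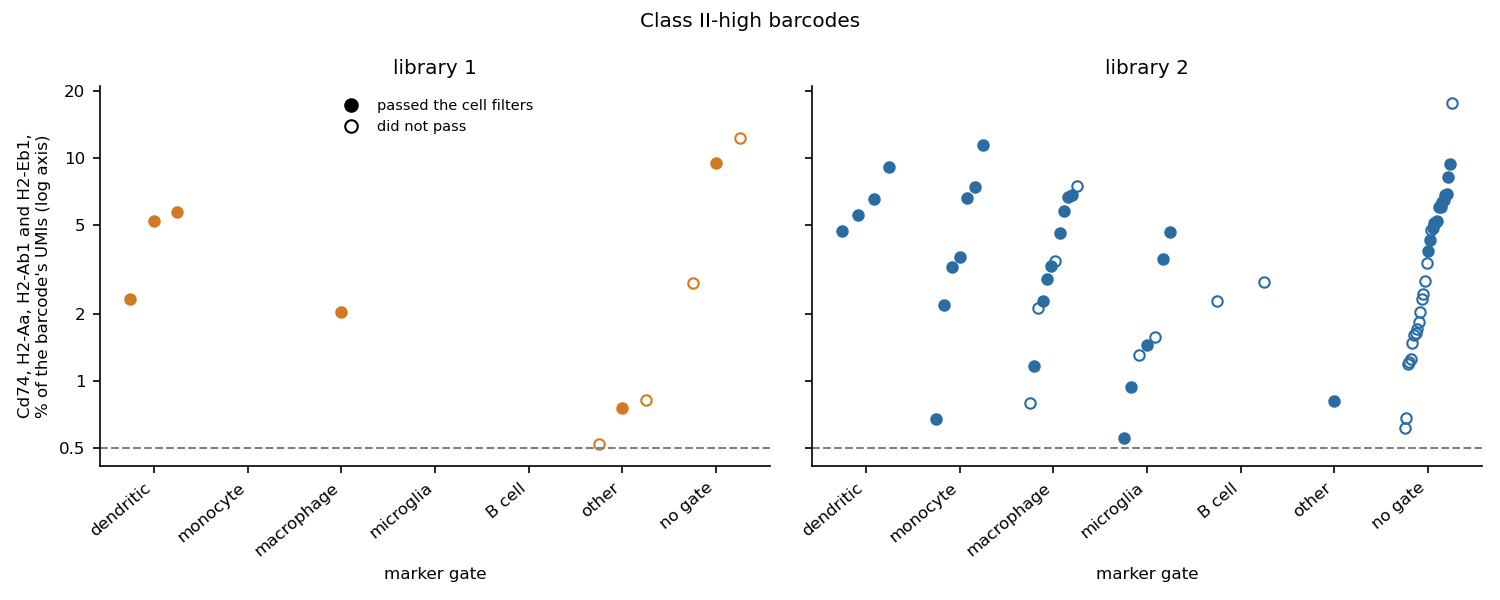
Each point is 1 class II-high barcode, placed by the marker gate it passed (x axis) and by the percent of its UMIs from Cd74, H2-Aa, H2-Ab1 and H2-Eb1 (y axis, log scale), with library 1 and library 2 in separate panels; filled points passed the filters and the dashed line is the threshold of 0.5%. The shares reach 12.4% in library 1 and 17.6% in library 2, where the barcode with the highest share passed no gate.

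Dendritic cells, monocytes and macrophages made up most of the class II-high barcodes that could be placed. Of the 10 in library 1, 3 passed the dendritic cell gate (1 of them the monocyte gate too) and 1 the gate for border-associated macrophages, the macrophages of meninges and vessels. A further 3 passed vascular gates, 1 of them together with the oligodendrocyte gate, and 3 passed none. Of the 64 in library 2, 13 passed the macrophage gate, 9 the monocyte gate, 7 the microglia gate, 4 the dendritic cell gate, 2 the B cell gate and 1 the endothelial gate, and 31 passed none; a barcode could pass more than 1. The 2 B cell-gated barcodes carried 7 of the 8 B cell markers each and had 99 and 113 UMIs of the 4 genes, but failed the mitochondrial filter. The endothelial-gated barcode was the largest of all, with 60698 UMIs, and carried markers of several types: 8 of 8 endothelial, 6 microglia and 5 fibroblast markers. It had 493 UMIs of the 4 genes, and was not marked as a doublet.

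Read the other way, the share of gated cells that were class II-high was greatest in the dendritic cell gate, followed by the monocyte and macrophage gates in library 2. All 3 dendritic cell-gated cells of library 1 and 4 of 5 in library 2 were class II-high. In the monocyte gate 1 of 4 cells was class II-high in library 1 and 9 of 16 in library 2 (56.3%, 29.9 to 80.2%), and in the macrophage gate 1 of 9 and 9 of 33 (27.3%, 13.3 to 45.5%). The intervals of these neighbours overlap. In library 2 the endothelial gate came next with 1 of 191 (0.524%, 0.0133 to 2.88%) and then the microglia gate with 5 of 1500 (0.333%, 0.108 to 0.776%), both below the interval of the macrophage gate. In the microglia gate of library 1 the count was 0 of 688, and 3 of 688 would be 0.436%. None of the 4567 neuron-gated cells of library 1 was class II-high, and 3 of them would be 0.0657%. Among T or NK cell-gated cells of library 2, which in mice make no class II, the count was 0 of 17.

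**Figure D2:**
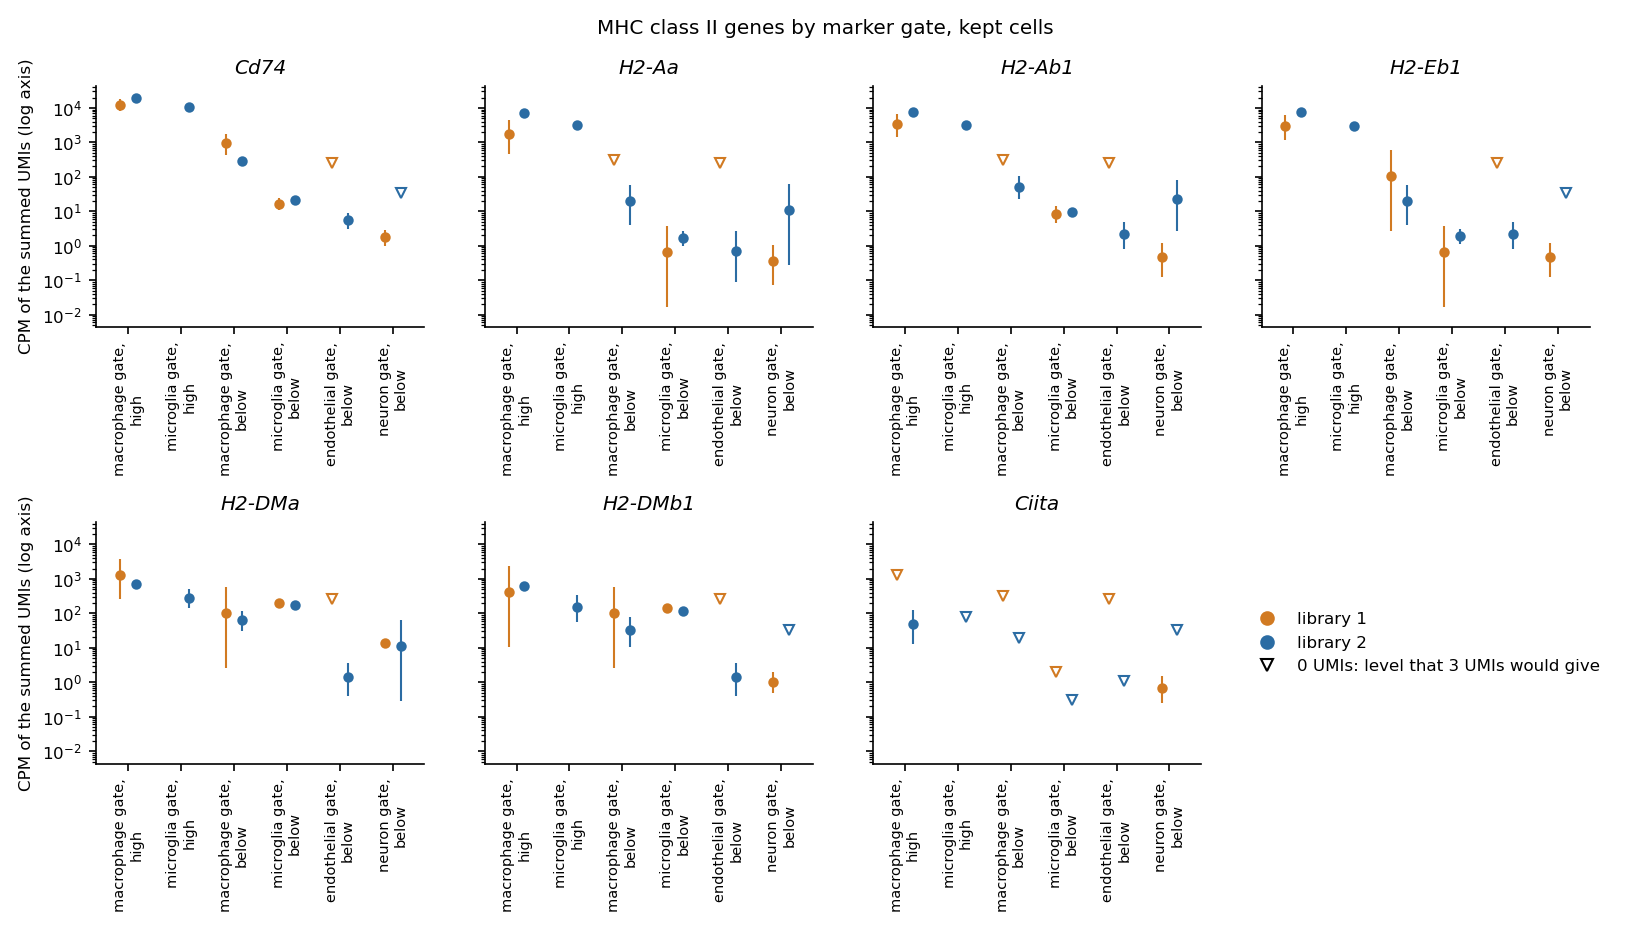
Each panel shows 1 member as UMIs per 1000000 UMIs of the set (CPM, log axis) in 6 sets of cells, left to right the class II-high cells of the macrophage and microglia gates and then the cells below the threshold in the macrophage, microglia, endothelial and neuron gates, for both libraries; bars are 95% Poisson intervals and open triangles mark the level that 3 UMIs would give where none was counted. Cd74 in microglia-gated cells below the threshold is 16.4 CPM in library 1 and 21.1 CPM in library 2, while H2-DMa is 195.7 and 176.7 CPM there.

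Below the threshold, microglia-gated cells held low levels of the 4 genes. Levels are given as CPM, UMIs per 1000000 of the summed UMIs of the cells. In the 672 microglia-gated cells of library 1, Cd74 had 25 UMIs or 16.4 CPM (10.6 to 24.2), H2-Ab1 13 UMIs or 8.54 CPM (4.55 to 14.6), and H2-Aa and H2-Eb1 1 UMI each. In the 4520 neuron-gated cells of that library, Cd74 had 15 UMIs or 1.75 CPM (0.978 to 2.88), H2-Aa 3 UMIs, and H2-Ab1 and H2-Eb1 4 UMIs each. Neurons make no class II, and the intervals for Cd74 and for the sum of the 4 genes (26.3 CPM in microglia-gated against 3.03 CPM in neuron-gated cells) do not overlap. Other gates without known class II were not all so low: the 95 oligodendrocyte-gated cells had 6 UMIs, all of Cd74, or 26.1 CPM of the 4 genes (9.58 to 56.8), and the 238 astrocyte-gated cells 2 UMIs or 6.37 CPM (0.771 to 23.0). The microglial sum of library 1 was therefore above that of neuron-gated cells, and not above those of oligodendrocyte-gated and astrocyte-gated cells by interval.

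In the 1482 microglia-gated cells of library 2 below the threshold, Cd74 had 209 UMIs or 21.1 CPM (18.3 to 24.1) and H2-Ab1 93 UMIs or 9.38 CPM (7.57 to 11.5). H2-Aa had 17 UMIs or 1.71 CPM and H2-Eb1 19 UMIs or 1.92 CPM. Library 2 had only 41 neuron-gated cells, with 3 UMIs of the 4 genes, or 33.5 CPM (6.91 to 97.9). That interval covers the microglial sum of 34.1 CPM (30.5 to 37.9), so neurons of library 2 give no usable floor. Other gates of library 2 were better counted below the threshold: the 4 genes reached 10.5 CPM (7.06 to 15.2) in 176 endothelial-gated cells and 31.3 CPM (15.6 to 56.0) in 78 pericyte-gated cells, and had no UMI in 25 fibroblast-gated cells (3 UMIs would be 14.8 CPM) or in 32 choroid plexus cells (8.40 CPM). By interval, the microglia gate stood above the endothelial, fibroblast and choroid gates, but not above the pericyte gate.

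Depth sets how many cells show a UMI, so cells were also thinned to 1000 UMIs each. A UMI of the 4 genes was then left in 1.64% of microglia-gated cells in library 1 (0.820 to 2.91%; 3.87% unthinned, median 2199.5 UMIs) and in 2.49% in library 2 (1.76 to 3.42%; 14.3% unthinned, median 6492 UMIs, class II-high cells included). The matching shares of neuron-gated cells were 0.243% in library 1 (0.122 to 0.435%; 0.398% unthinned, median 1682 UMIs) and 1 of 41 cells in library 2. The UMIs were not spread evenly. In library 2, 1273 of 1486 microglia-gated cells had no UMI of the 4 genes, 158 had 1, 33 had 2, 16 had 3 to 9, and 6 had 10 or more. In library 1, 1 cell held 13 of the 40 UMIs.

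The make-up of the class II UMIs differed between the class II-high cells and microglia-gated cells below the threshold. The rule used the sum of the 4 genes and not their proportions. In the class II-high cells that passed the filters, Cd74 made up 50.3% of the 1456 UMIs in library 1 and 47.8% of the 23165 UMIs in library 2. The chains followed at similar levels: H2-Aa at 19.7% and 16.7%, H2-Ab1 at 14.6% (12.9 to 16.5%) and 16.99% (16.5 to 17.5%), and H2-Eb1 at 15.3% and 18.5%. In microglia-gated cells below the threshold H2-Ab1 made up 32.5% of 40 UMIs in library 1 (18.6 to 49.1%) and 27.5% of 338 UMIs in library 2 (22.8 to 32.6%). There H2-Aa was at 2.50% and 5.03% and H2-Eb1 at 2.50% and 5.62%. So the α and β chain UMIs were near parity in class II-high cells of library 2 (3860 and 3935), whereas the β chain exceeded the α chain 93 to 17 in microglia-gated cells.

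The H2-Ab1 share was similar over the class II-high cells of the larger gates of library 2, but H2-Eb1 and Cd74 varied more. H2-Ab1 was 18.3% of the 4 genes in the macrophage gate, 17.3% in the monocyte and dendritic cell gates together, 16.5% in cells of no gate and 15.9% in the 4 microglia-gated cells. In the same order H2-Eb1 was 18.4%, 17.1% (16.3 to 17.8%), 20.3% (19.4 to 21.1%) and 15.4% (12.9 to 18.2%). Cd74 was 46.4%, 48.9% (47.9 to 49.9%), 46.5% (45.5 to 47.6%) and 52.2% (48.6 to 55.8%). For both genes the intervals of cells of no gate and of microglia-gated cells did not overlap. Pooled, the 4 class II-high microglia-gated cells had H2-Aa at 16.4% (13.9% at the lower bound), above its share in microglia-gated cells below the threshold. Of their 766 UMIs, 537 were in 1 cell that also carried macrophage, monocyte and dendritic cell markers. The rest had 17 of 104, 11 of 87 and 5 of 38 UMIs from H2-Aa, and 52, 62 and 18 from Cd74. Across single class II-high barcodes of library 2 with enough UMIs (35 barcodes), Cd74 ranged from 36.6 to 71.3% with a median of 49.3%. One dendritic cell-gated barcode of library 1, chosen after its values were seen, had 13 UMIs of Cd74, 43 of H2-Aa, 2 of H2-Ab1 and 35 of H2-Eb1. The remaining cells below the threshold had few class II UMIs, 42 in library 1 and 73 in library 2. H2-Ab1 was 14.3% of them in library 1 (5.43 to 28.5%) and 20.5% in library 2 (11.98 to 31.6%), intervals that overlap both those of class II-high cells and those of microglia-gated cells. H2-Aa was 6.85% of them in library 2 (2.26 to 15.3%) and 5.17% of 58 UMIs in the macrophage-gated cells below the threshold (1.08 to 14.4%), under the interval of class II-high cells (16.2 to 17.1%) as in microglia-gated cells. H2-Eb1 was 27.4% in the remaining cells of library 2 (17.6 to 39.1%), overlapping the class II-high cells and above the microglia-gated cells. The low share of H2-Aa was thus not particular to the microglia gate.

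**Figure D3:**
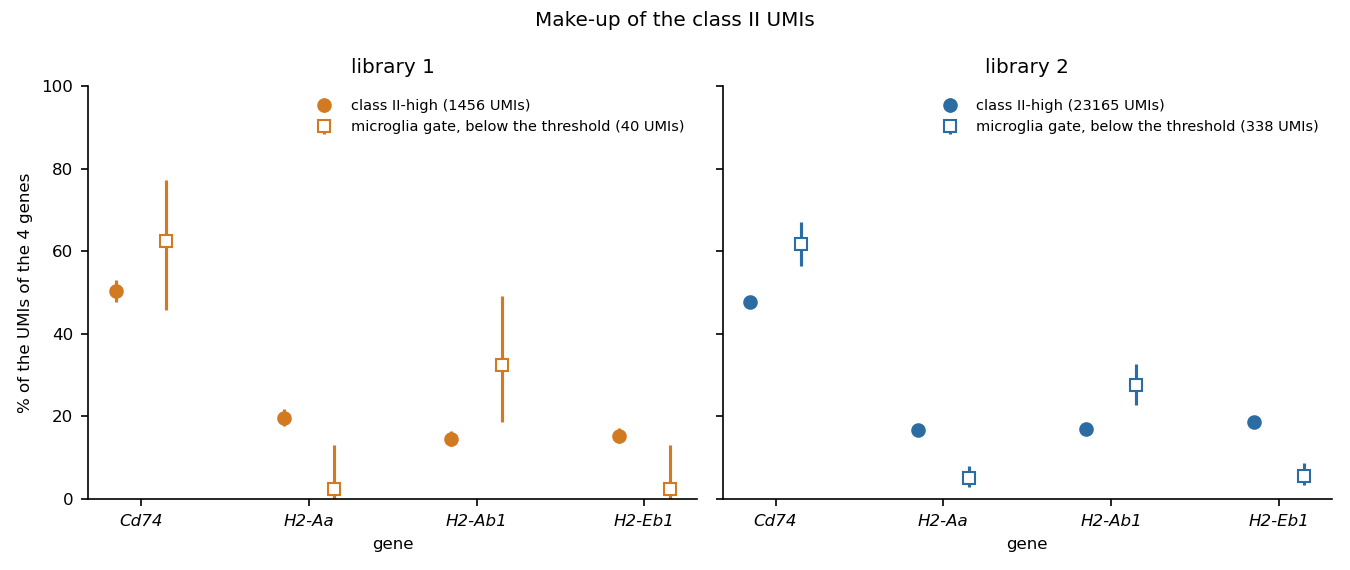
Percent of the summed UMIs of Cd74, H2-Aa, H2-Ab1 and H2-Eb1 that came from each gene (y axis), in class II-high cells that passed the filters and in microglia-gated cells below the threshold, for both libraries, with 95% Clopper-Pearson intervals. H2-Ab1 is at 16.99% in class II-high cells and 27.5% in microglia-gated cells of library 2, and H2-Aa at 16.7% and 5.03%.

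H2-DMa and H2-DMb1, the peptide editor, were well counted in microglia-gated cells, where the presenting chains were scarce. In library 1 H2-DMa had 298 UMIs or 195.7 CPM (174 to 219) in microglia-gated cells against 117 UMIs or 13.6 CPM (11.3 to 16.3) in neuron-gated cells. H2-DMb1 had 220 UMIs or 144 CPM (126 to 165) in microglia-gated and 9 UMIs or 1.05 CPM (0.479 to 1.99) in neuron-gated cells. In library 2, microglia-gated cells below the threshold had 1752 UMIs or 176.7 CPM of H2-DMa (168 to 185) and 1131 UMIs or 114 CPM of H2-DMb1 (107 to 121). The 176 endothelial-gated cells of library 2 below the threshold had 4 UMIs each of H2-DMa and H2-DMb1, or 1.46 CPM (0.396 to 3.73). So in both libraries microglia-gated cells below the threshold carried more DM transcript than Cd74 transcript, while class II-high cells carried far more Cd74. Cd74 is among the 4 genes that chose the class II-high cells, so its side of this contrast was fixed by the rule.

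After thinning, H2-DMa was left in 17.4% of microglia-gated cells of library 1 (14.6 to 20.5%; 32.4% unthinned) and 16.3% of library 2 (14.4 to 18.3%; 61.3% unthinned). In neuron-gated cells the thinned share was 1.26% in library 1 (2.52% unthinned) and 1 of 41 cells in library 2. H2-DMb1 was left in 14.4% and 9.29% of microglia-gated cells (27.5% and 50.7% unthinned), and in 0.155% of neuron-gated cells of library 1. Of 1482 microglia-gated cells below the threshold in library 2, 907 had an H2-DMa UMI, 752 an H2-DMb1 UMI and 507 both; Cd74 was seen in 130 and H2-Ab1 in 78.

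Outside the microglia gate of library 1, H2-DMa UMIs came with few H2-DMb1 UMIs. Over cells of library 1 outside the microglia and macrophage gates and below the threshold, H2-DMa made up 87.7% (81.2 to 92.5%) of the DM UMIs, against 57.5% in microglia-gated and 53.8% in class II-high cells. In library 2 the share over the cells outside the microglia and macrophage gates and below the threshold was 56.9% of 51 UMIs (42.2 to 70.7%), against 60.8% in microglia-gated cells. These sets are unlike mixtures of cells. Neuron-gated cells held 117 of the 128 H2-DMa UMIs of the set in library 1 and 1 of 29 in library 2. H2-DMa overlaps Brd2, a broadly expressed chromatin reader on the opposite strand, over 3094 bases, and Brd2 had 149 UMIs or 97.8 CPM in microglia-gated and 424 UMIs or 49.4 CPM in neuron-gated cells of library 1. Ciita overlaps Dexi on the opposite strand over 25888 bases, and H2-Eb1 overlaps Gm20513 over 2204 bases. On the same strand, H2-DMa overlaps CR974462.3 over 591 bases. The sources used here do not say whether counting used strand, so whether reads of opposite-strand partners were counted is not known. Gm20513 had no UMI in the microglia-gated or neuron-gated cells of either library.

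Ciita, the coactivator, was seen mainly in class II-high cells. In cells that passed the microglia gate alone it had no UMI in 672 cells of library 1 (3 UMIs would be 1.97 CPM) or in 1486 of library 2 (0.301 CPM); 1 class II-high cell that passed both the microglia and the macrophage gate had 1 UMI. In library 2, Ciita had 9 UMIs or 92.3 CPM (42.2 to 175) in 7 class II-high monocyte-gated cells, 5 UMIs or 160.5 CPM (52.1 to 374.5) in 2 dendritic cell-gated cells, 4 UMIs or 47.9 CPM (13.04 to 122.5) in 8 macrophage-gated cells and 7 UMIs or 48.5 CPM (19.5 to 99.9) in 12 cells of no gate. These intervals overlap one another. The first 2 levels rest on single cells: 7 of the 9 monocyte UMIs were in 1 cell, and the other 6 cells had 2 UMIs or 22.1 CPM (2.68 to 79.95), while 4 of the 5 dendritic cell UMIs were in 1 cell, and the other had 1 UMI or 66.3 CPM (1.68 to 369.6). Without the cell with the most Ciita UMIs the level was 27.8 CPM in the macrophage gate and 39.6 CPM in cells of no gate. In library 1 it had 8 UMIs in class II-high cells and 6 in neuron-gated cells, 0.699 CPM (0.256 to 1.52), where Dexi had 362 UMIs.

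Within the macrophage gate of library 2, the cells split into 8 class II-high cells and 22 below the threshold that passed this gate alone. The 4 genes summed to 42717 CPM in the class II-high cells and 377 CPM (286 to 487) in those below. H2-DMa, which the rule did not use, was at 706 CPM (537 to 911; 59 UMIs in 7 of 8 cells) in class II-high cells and 65.0 CPM (31.2 to 120; 10 UMIs) below. H2-DMb1 was at 634 CPM (475 to 830; 53 UMIs) in class II-high cells and 32.5 CPM (10.6 to 75.8; 5 UMIs) below. On log2(CPM + 10), the scale of all ratios here, the differences were 3.26 for H2-DMa and 3.92 for H2-DMb1. Over the 589 genes with at least 50 UMIs in the macrophage gate the median was -0.05, with 1.87% called higher at 4-fold or more and 1.87% lower. The 6 members that reached 50 UMIs were called higher, but 4 of them chose the cells and H2-DMa and H2-DMb1 reached 50 UMIs only through the class II-high cells, so their calls are a description. Ciita did not reach 50 UMIs.

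The class II-high macrophage-gated cells also differed from the others in the macrophage markers that defined the gate, several of which separate known subsets of border macrophages. Lyve1, a hyaluronan receptor of macrophages along vessels and in the meninges, had no UMI in the 8 class II-high cells (3 UMIs would be 35.9 CPM) and 118 UMIs or 767 CPM (635 to 918) in 11 of the 22 below the threshold. Cd209f, a C-type lectin, likewise had no UMI in class II-high cells, against 78 UMIs or 507 CPM in the others. Cd163, the haemoglobin scavenger receptor, was at 156 CPM (82.8 to 266) in class II-high cells against 955 CPM (807 to 1123) below. Pf4 was at 622 CPM (465 to 816) against 3224 CPM (2946 to 3520), and Mrc1, the mannose receptor, at 969 CPM (770 to 1205) against 3302 CPM (3021 to 3602).

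Ms4a7, another marker of the gate, was alike by interval, at 957 CPM (759 at the lower bound) in class II-high and 981 CPM (831 at the lower bound) in the other macrophage-gated cells. Of the monocyte markers, Ccr2, the receptor that draws monocytes into tissue, had 10 UMIs or 120 CPM in 3 of 8 class II-high cells, and 2 UMIs or 12.998 CPM in 1 of 22 below. Ms4a4c had 10 and 3 UMIs, and 5 of the 8 monocyte markers (Ly6c2, Plac8, Chil3, S100a4 and Vcan) had none in either set. Fn1, the remaining monocyte marker, is not given here. Clec10a, a dendritic cell marker here, had no UMI in class II-high cells and 45 UMIs or 292 CPM in those below. These markers admitted the cells to the gate, and the split rests on 8 cells of 1 library. Asking for 4 macrophage markers in place of 3 left 8.11% of the 37 class II-high cells in the gate, against 24.3%. The matching loss among cells below the threshold is not given here, so the number of markers per cell is not compared. In library 1 the gate held 1 class II-high cell with no Lyve1 UMI and 4 below the threshold with 5 UMIs in 2 of them.

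**Figure D4:**
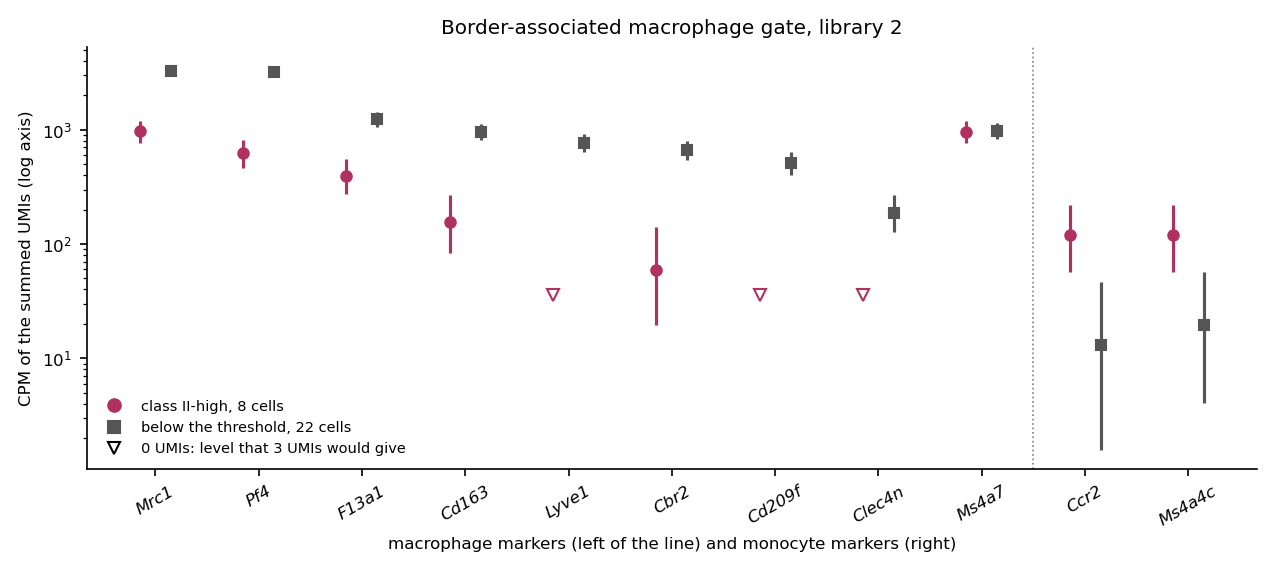
Summed level (CPM, log axis) of 9 macrophage and 2 monocyte markers in the 8 class II-high cells (left point of each pair) and the 22 cells below the threshold (right point) of the macrophage gate of library 2, with 95% Poisson intervals; open triangles mark the level that 3 UMIs would give where none was counted. Pf4 is at 622 CPM in class II-high and 3224 CPM in the other cells, and Lyve1, Cd209f and Clec4n have no UMI in class II-high cells.

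Within the microglia gate of library 2, 4 class II-high cells stood against 1482 below the threshold. They had 537, 104, 87 and 38 UMIs of the 4 genes, so 1 cell held 537 of 766. Of these 4 cells, 3 carried 10 of 10 microglia markers and no macrophage, monocyte or dendritic cell marker; the one with 537 UMIs carried 9 microglia, 2 macrophage, 2 monocyte and 1 dendritic cell marker. H2-DMa was at 286 CPM (143 to 512; 11 UMIs) in the class II-high cells and 176.7 CPM (168 to 185) in the others, and H2-DMb1 at 156 CPM (57.3 to 340; 6 UMIs) and 114 CPM (107 to 121). Neither difference, 0.67 and 0.42 on the log2 scale, exceeded counting error. Over 9933 genes in the microglia gate, 0.675% were called higher and 6.31% lower, with a median of -0.38, and 4 of the 6 members were called higher, the 4 that chose the cells. Apoe, a lipid carrier named after its values were seen, was at 8970 CPM in the class II-high microglia-gated cells and 989 CPM in the others, a ratio of 9.07 (8.12 to 10.1), with UMIs in 4 of 4 cells.

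The 12 class II-high cells of library 2 that passed the filters and no gate carried myeloid markers. They missed each gate on the number of its markers or on their UMIs. For example, 1 cell carried 5 dendritic cell markers and another 4 macrophage markers, enough by number. Cx3cr1, the fractalkine receptor, was found in 11 of the 12 cells. Ccr2 had 182 UMIs in 9 of the 12 cells, Ms4a7 65 UMIs in 8, Mrc1 36 UMIs in 10 and P2ry12 5 UMIs in 4. H2-DMa was at 852 CPM (708 to 1016) and H2-DMb1 at 672 CPM (545 to 819) in them. By interval both overlapped the levels of the class II-high macrophage-gated cells and lay above those of the 4 class II-high microglia-gated cells. They are given no cell type name.

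Over all 37 class II-high cells of library 2, the microglia markers P2ry12 and Tmem119 were lower than in microglia-gated cells below the threshold. The monocyte marker Ccr2 and the macrophage markers Mrc1 and Ms4a7 were higher, which did not hold for every marker of those lists. The microglia markers chose the microglia-gated cells, so their difference was fixed by the gate and is a description. Cells passing the monocyte or macrophage gate were left out of the microglia-gated set, while 9 of each were among the 37. The differences in monocyte and macrophage markers were thus partly fixed by the gates too. P2ry12 was at 189 CPM in the class II-high and 3182 CPM in the microglia-gated cells, and Tmem119 at 204 and 1746 CPM. In the other direction, Ccr2 was at 844 CPM in the class II-high cells (24 of 37 cells) and 6.35 CPM in microglia-gated cells, Mrc1 at 343 CPM (31 cells) and 8.97 CPM, and Ms4a7 at 301 CPM (17 cells) and 0.403 CPM. Lyve1, Cd209f, Vcan, Ccr7, Ccl22 and Ms4a1 had no UMI in the 37. In the 6 class II-high cells of library 1, Ccr2 had 31 UMIs in 3 cells, Cd209a 9 UMIs in 2 and Flt3, a dendritic cell cytokine receptor, 7 UMIs in 2.

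The genes around the members were compared in 7 lists of 43 genes, 41 of them in the tables, first between class II-high cells and microglia-gated cells below the threshold. In library 1 all 6 members tested were called at 4-fold or more higher, H2-DMa at 2.21 and H2-DMb1 at 2.40 on the log2 scale. Over all 5205 genes tested 1.56% were called higher and 31.1% lower, around a median of -0.61. In library 2, 5 of 6 members were called higher, with H2-DMb1 at 2.43 and H2-DMa just short at 1.95. There 1.83% of 10120 genes were called higher and 1.72% lower, around a median of -0.30. H2-DMa was at 713 CPM in class II-high and 176.7 CPM in microglia-gated cells of library 2, and H2-DMb1 at 659 and 114 CPM.

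The other class II chains were less far apart. H2-DMb2, the second DM β chain, was called higher in library 2 at 2.02, with 25 UMIs or 48.2 CPM in class II-high cells and 43 UMIs or 4.34 CPM in microglia-gated cells. H2-Oa and H2-Ob, the subunits of the DM inhibitor, were at 0.57 and 0.49 and were not called. In library 1 only H2-Oa reached 50 UMIs, at 1.30, and was not called. H2-Eb2 had no UMI in these cells, and the symbols H2-Ea and H2-Ea-ps were not found in the tables. The last 500 bases of the longest H2-DMb1 and H2-DMb2 transcripts were 60.4% identical, and how the counting split reads of the pair was not examined.

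Of the 6 listed genes that process antigen or the invariant chain in endosomes, 4 were called lower in class II-high cells of library 1 and 3 in library 2, against 31.1% and 1.72% of all genes. In library 2 the log2 difference was -3.54 for Ctsd, -3.07 for Ctsl and -2.14 for Lgmn, all called lower, and 0 of 6 genes of the list were called higher. Ctsd, an aspartic protease, was at 605 CPM in class II-high cells and 7126 CPM in microglia-gated cells, and Lgmn, the asparagine-specific protease that starts the cutting, at 625 and 2788 CPM. Ctss, which makes the last cut of the invariant chain, was at 2238 and 5279 CPM, a difference of -1.23 that was not called. Ifi30, a thiol reductase that unfolds antigen, ran the other way, at 393 CPM in class II-high and 163 CPM in microglia-gated cells, 1.22 and not called. In library 1 the called genes were Ctsd, Ctsl, Lgmn and Ctss, with a list median of -3.38, and Ifi30 was at 606 and 163 CPM. Within the macrophage gate of library 2 none of the 5 protease genes with enough UMIs was called, with Ctsd at 431 CPM in class II-high cells and 1573 CPM below the threshold. Microglia are rich in these proteases, and the part of cell type in the difference was not tested.

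**Figure D5:**
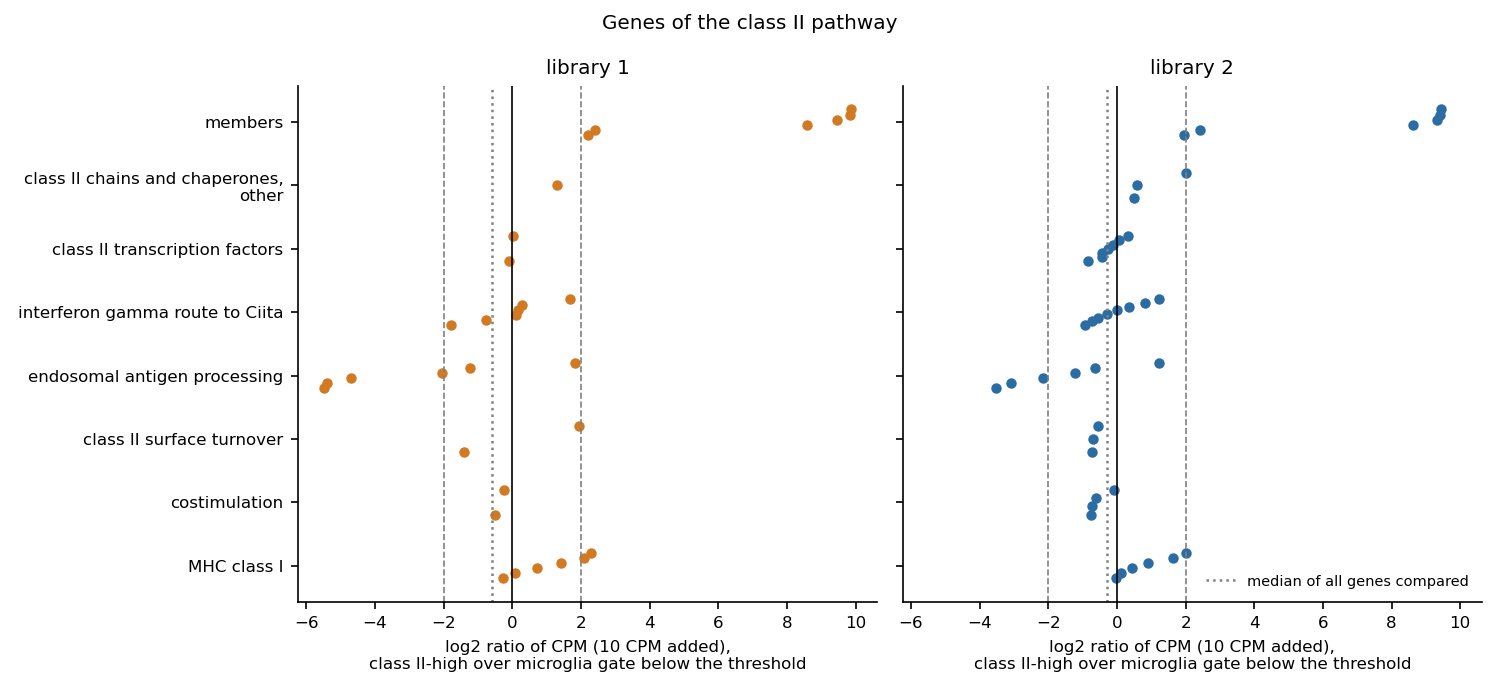
Difference between class II-high cells and microglia-gated cells below the threshold, as log2 of the ratio of (CPM + 10), for each gene of the 7 lists and for the members, in both libraries; dashed lines mark 4-fold in either direction and dotted lines the median over all genes tested. Ctsd, Ctsl and Lgmn lie below the lower dashed line in both libraries, and the transcription factors lie between the lines.

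The factors that bind class II promoters and the interferon γ route to Ciita showed no called gene against microglia-gated cells. Of the 7 transcription factors (Rfx5, Rfxap, Rfxank, Nfya, Nfyb, Nfyc and Creb1), 0 were called in library 2 around a list median of -0.25, and 0 of the 2 that could be tested in library 1. Of the 8 genes of the interferon route, 0 were called in library 2 (list median -0.15) and 0 of 6 in library 1. Irf8, a myeloid transcription factor, was at 316 CPM in class II-high and 609 CPM in microglia-gated cells of library 2. Costimulatory genes (4 tested in library 2, 2 in library 1) and genes of class II turnover (3 and 2 tested) gave 0 calls, with Cd86 at 116 CPM in class II-high and 204 CPM in microglia-gated cells of library 2.

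Among class I genes the heavy chains stood highest. In library 1, H2-K1 and H2-D1, the class I heavy chains, were called higher at 2.28 and 2.08, 2 of 6 genes tested. In library 2, H2-D1 was called higher, at 1490 CPM in class II-high and 364 CPM in microglia-gated cells (2.00), and H2-K1 was at 997 and 313 CPM (1.64, not called). B2m, the shared light chain, was at 1764 and 1295 CPM. Within the macrophage gate, H2-D1 was at 1903 CPM in class II-high cells and 1430 CPM below the threshold, and 0 of 3 class I genes tested were called.

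Against all other cells that passed the filters the same ratios depend on what each library held. In library 1, mostly neurons, 4.22% of 13638 genes were called higher in class II-high cells and 22.7% lower, around a median of -0.98, and all 6 members tested were called higher, H2-DMa at 4.34 and H2-DMb1 at 4.74. There 5 of 8 interferon route genes and 5 of 6 class I genes were called higher. In library 2, mostly microglia, 0.891% of 12564 genes were called higher and 1.46% lower, around a median of -0.36, and the 6 members were again all called higher, H2-DMa at 2.52 and H2-DMb1 at 2.97. There 0 genes of the interferon, class I, costimulation, turnover and transcription factor lists were called.

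Genes outside the lists were ranked by their ratio over other cells, among those with at least 50 UMIs in the class II-high cells. Of the top 12 in library 2, Mgl2, a C-type lectin of dendritic cells and macrophages, had 255 UMIs in 20 of 37 class II-high cells. It was at 492 CPM there against 4.55 CPM in other cells. Clec4b1 had 119 UMIs in 23 cells, Clec12a 160 UMIs in 28, Plbd1 154 UMIs in 29, Cd72 117 UMIs in 23 and Wfdc17 253 UMIs in 27. Tnip3 had 120 UMIs but in only 10 cells. Cd209a, Ccr2, Ms4a4c, Plac8 and S100a4 were the other 5 of the 12, and are themselves gate markers. Plac8 had 130 UMIs in 2 cells, so its ratio rests on those.

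In library 1, Lyz2, the lysozyme of myeloid cells, had 92 UMIs in 5 of 6 class II-high cells, at 3096 CPM against 55.4 CPM in other cells. Ccl5 had 156 UMIs, all in 1 cell. The other 10 of the 12 were genes of ribosomal proteins, among them Rpsa, Rplp0, Rps19, Rpl32, Rps4x, Rps16, Rpl23 and Rps24, at 19.5 to 26.5 times the level of other cells. Of these, Rpsa was at 6092 CPM in class II-high cells and 807 CPM in microglia-gated cells. The 6 class II-high cells held 29712 UMIs in all, so the rule of at least 50 UMIs in them admitted only abundant transcripts. The other cells of library 1 were mostly neuron-gated, and the part of cell type in these ratios was not tested.

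Within the macrophage gate of library 2 the genes with high ratios, named after their values were seen, included Hspa1a, Hspa1b, Fos and Cd52. Hspa1a had 139 UMIs in 4 of 8 class II-high cells, at 1663 CPM against 19.5 CPM below the threshold. Hspa1b (1759 against 169 CPM) was found in 3 of the 8 cells and Fos (921 against 123 CPM) in 5. Cd52 was at 1903 against 383 CPM. Microglia-gated cells below the threshold had 341 CPM of Hspa1a, 388 CPM of Hspa1b, 1579 CPM of Fos and 160 CPM of Cd52. The first 3 transcripts were thus not particular to class II-high cells. Hspa1a and Hspa1b encode stress-induced chaperones, and Fos is an immediate early gene. Cd52 was found in 8 of the 8 class II-high cells.

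The profiles of the members were compared over the 14 sums of at least 20 cells of 1 gate and library. Pearson correlations of log2(CPM + 10) with the sum of the 4 genes were 0.97 for H2-Ab1, 0.97 for Cd74, 0.96 for H2-Aa and 0.95 for H2-Eb1, and 0.67 for H2-DMa and 0.70 for H2-DMb1. The first 4 genes are part of that sum and the DM genes are not, so the gap between these correlations is partly fixed by construction. H2-DMa and H2-DMb1 correlated at 0.93 with each other. Of 15479 genes, the 12 most like the sum were Gm13212 (0.95), Cxcl2 (0.94), Kif20b, Clspn, Tmem106a, Wfdc17, Abcg3, Mrc1, Ifi204, Gpr65, Slfn9 and Gm4951 (0.91). Of these, Gm13212 had 51 UMIs over all sums, Clspn 55, Slfn9 70, Abcg3 75 and Kif20b 77, so their places rest on few counts. Gm13212 peaked at 12.6 CPM, near the 10 CPM added. Mrc1 is a marker of the macrophage gate, so its place was partly fixed by that gate. The profile of the 4 genes rests on the macrophage sum of library 2, the only macrophage sum with enough cells, and all sums of a library share its depth and free RNA.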

How the data were processed

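The deposited values are whole-number UMI counts, by gene and barcode, of 2 libraries, which the authors made with Cell Ranger 3.0.1 on GRCm38.p5, per the submitters' processing notes; the counts are not normalized. The sources used here do not say whether counting used strand or introns. Cells with at least 1000 UMIs, 500 genes and at most 10% mitochondrial UMIs were kept, and doublets marked by Scrublet (scanpy 1.11.5) were left out. Its automatic threshold marked 12.8% of barcodes in library 1; in library 2 it marked none, so the 5.16% with the highest scores were removed.

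A cell entered a gate with at least 3 of a type's markers (2 for some types) and a minimum of their UMIs per 10000, limits set after the data were seen. UMIs were summed per gate and library and divided by the sum (CPM). Intervals are from scipy 1.17.1. Ratios used log2(CPM + 10) for genes with at least 50 UMIs, called at 4-fold; no p-value was computed. The ratio step was tested on simulated data. Shares of cells were taken after thinning to 1000 UMIs, seed 0.

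Named genes were the members, the 7 lists and the 12 genes most like the sum of the 4 genes. Also named were the 12 per library with the highest lower bound of the ratio, given at least 50 UMIs in class II-high cells. Other names were chosen after their values were seen. The members, lists and markers were chosen with earlier results of these data known. Alternatives changed the filters, gates, class II threshold, thinning and fold. Promoter sequences are from RefSeq, where 8 of 11 genes looked up had an entry. Some genes are not reported here.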

Additional observations from a re-analysis of the deposited data

How the results depend on the processing

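Over 37 results, 206 alternative values were computed; 190 stayed within their counting interval or within 1.5 times of a count, and 16 moved. The 4-gene level of the macrophage gate, class II-high cells included, was 4907 CPM in library 1 and 2862 CPM with at least 500 UMIs and 250 genes; in library 2 it was 15280 CPM, 10500 CPM with up to 20% mitochondrial UMIs and 5495 CPM with the stricter gate. In the microglia gate of library 2, class II-high cells included, it was 110.9 CPM, against 136.6 CPM with up to 20% mitochondrial UMIs and 138.4 CPM with the stricter gate. The stricter gate also gave a macrophage share of the class II-high cells of library 2 of 8.11%, against 24.3%, and a share of no gate of 59.5%, against 32.4%. Without thinning, shares of microglia-gated cells with a UMI of the 4 genes were 3.87% in library 1 and 14.3% in library 2, against 1.64% and 2.49%, and with an H2-DMa UMI 32.4% and 61.3%, against 17.4% and 16.3%; deeper cells show more genes by construction. Counting only cells that passed the filters left 37 class II-high barcodes in library 2, against 64. Calling at 2-fold gave 1780 genes higher over other cells in library 1, against 575, and 445 in library 2, against 112, and 41 within the macrophage gate, against 11. For the filters and gates the cause was not tested. No paired analysis was possible because the labels put neither library in a group. Leaving out the cell with the most Ciita UMIs, an alternative chosen after seeing the data, gave 22.1 CPM in class II-high monocyte-gated cells of library 2, against 92.3 CPM with it. The depth limits Ciita most, with 14 and 34 UMIs in all.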
